A study of Mus musculus with 21 samples.

Results

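Cells stimulated by an agonist antibody against the lymphotoxin beta receptor (anti-LTBR) were compared with PBS controls in cultures of mouse aortic smooth muscle cells after 24 h, with 4 arrays per group, and these 8 of the 21 arrays of the series are described here. The 4 anti-LTBR arrays came from cells given the antibody in PBS at 10 µg/ml, and the 4 PBS arrays from cells given PBS alone. The cells were grown from aortas of male C57BL/6J mice aged 10 to 12 weeks, in medium with fetal calf serum, and were fed a day before the stimuli were added. Arrays of cells given TNF at 1 ng/ml (4 arrays) and of cells given both agonists (3 arrays) at 24 h entered the same fit and served to estimate the spread. The titles number the arrays of each group 0 to 3, and arrays of the same number were compared as pairs. The labels do not say whether a number stands for a culture, an animal or a pool, so the p-values cover the spread among these arrays alone, which may be technical. All 12454 genes that passed a filter on low signals were tested.

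LTBR belongs to the TNF receptor family, has no death domain and signals through TRAF adaptors. Its activation stabilises the kinase NIK, which drives processing of the p100 product of Nfkb2 to p52, the non-canonical NF-kB route, beside a more transient canonical route. In stromal cells the receptor is required for the formation of lymph nodes, where stromal organizer cells display adhesion molecules and chemokines that attract lymphocytes. Vascular smooth muscle cells express contractile proteins under control of serum response factor, and in culture they can also express genes of cartilage and bone.

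The labelled cell type was checked first. The smooth muscle markers Acta2 (16995 to 18368 with anti-LTBR, 17546 to 19651 with PBS) and Tagln (12584 to 13882 with anti-LTBR, 13425 to 15454 with PBS) were among the high signals of every array. Signals are linear array intensities in arbitrary units, and levels of different genes cannot be ranked by them. The number 0 pair stood apart from the other 3. Its Myh11 signal, smooth muscle myosin, was 110.7 with anti-LTBR and 152.1 with PBS, against 637.5 to 2728 and 822.3 to 3338 on numbers 1 to 3. Its signal for Pecam1, an endothelial adhesion molecule, was 5619.8 with anti-LTBR and 4438 with PBS, against 40.3 to 369.9 and 68.6 to 318.7 on numbers 1 to 3. Summed over 18 endothelial markers, the signal was 26253 with anti-LTBR and 26336 with PBS on number 0, and 3679 to 6704 and 3512 to 6616 on the others. Both arrays of the pair carried this signal alike, and counts are given below with and without the pair. Of the leukocyte markers, Ptprc (22.1 to 70.6 with anti-LTBR, 45.4 to 91.2 with PBS) and Cd3e (23.1 to 56.1 with anti-LTBR, 27.1 to 39.5 with PBS) stayed below the median signal of their arrays, which was 107.4 to 123.1 with anti-LTBR and 111.3 to 139 with PBS. Others lay above it, namely 5 of 12 macrophage and 2 of 7 lymphocyte markers by their mean. Csf1r had 448.9 to 932.6 with anti-LTBR and 428.4 to 1304 with PBS, and Cd8a had 319 to 512.1 and 291.7 to 606.4. The summed signal of the macrophage markers was 1684 to 4079.5 with anti-LTBR and 1813 to 5473.5 with PBS, highest on number 3 in both groups. The summed signal of 7 adventitial fibroblast markers was higher with anti-LTBR in all 4 pairs, at 12634, 11703, 8316 and 9509 with anti-LTBR, against 10352, 11017, 7399 and 8187 with PBS. Cd34 held a large part of that sum, at 7195, 4568, 3930 and 4600 with anti-LTBR, against 5745, 4005, 3451.5 and 3929 with PBS. In both groups Cd34 was highest on number 0, the pair with high endothelial marker signal. In such bulk RNA, fewer cells of a type and less RNA per cell cannot be told apart.

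After 24 h of anti-LTBR, 595 genes had changed against PBS (limma, Benjamini-Hochberg adjusted p under 0.05, number as a block), which is 4.78 percent of those tested. Of these, 318 were higher (2.55 percent) and 277 were lower (2.22 percent). Counts of called members of gene lists below are to be read beside these shares, and lists with few calls may lie near them. The 2 directions differed in size. At least 2-fold changes were found for 35 genes that rose and for 5 that fell, and the median change was 0.43 on the log2 scale for the rises and -0.33 for the falls. All 4 pairs moved the same way for 316 of the 318 rises and for 277 of the 277 falls. As the fit has the number as a block, such agreement largely follows from being called and is no separate result. The 4 anti-LTBR arrays lay above all 4 PBS arrays for 109 of the rises and below them for 37 of the falls. Over all tested genes such separation occurred for 1.78 percent above and 1 percent below. Without the number 0 pair, 201 genes were higher (1.61 percent) and 113 were lower (0.907 percent), of which 181 and 105 were among the calls with all pairs. The counts moved by more than 1.5 times in other fits too: to 184, 186 and 201 higher without the anti-LTBR array of number 0, 1 or 3, and to 197 without the PBS array of number 1. Without the pairs of number 1 or 3 they were 124 and 169. The falls numbered 104, 115 and 173 without the same anti-LTBR arrays, 160 without that PBS array, and 57, 176 and 129 without pairs 1, 2 and 3.

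Most of the falls depended on how the arrays were scaled. The deposited signals have the same trimmed mean on every array. When the arrays were instead brought to the same median signal, the median change over all tested genes moved to 0.07 on the log2 scale, from -0.01 as deposited. With equal medians 410 genes were higher (3.29 percent) and 61 lower (0.49 percent), and the lower genes made up 12.95 percent of the calls in place of 46.55 percent. Of the 318 rises 311 were called again, but of the 277 falls only 60. Under quantile normalization 265 of the falls were called again, and 275 when the median of the tested genes was made equal. Every called gene whose 4 signals per group are listed in the results below was called under both the deposited and the equal-median scaling. The pairing mattered as well. A fit that ignored the numbers found 16 rises and 0 falls (limma, 537 genes at an unadjusted p under 0.05, smallest adjusted p 0.00181). Of the genes named here Rrad, Casp4, Ccl5, Cxcl10, Nfkb2, Nfkbia, Birc2, Birc3, Traf2, H2-K1 and Zfp36l1 were called without the block too.

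**Figure D1:**
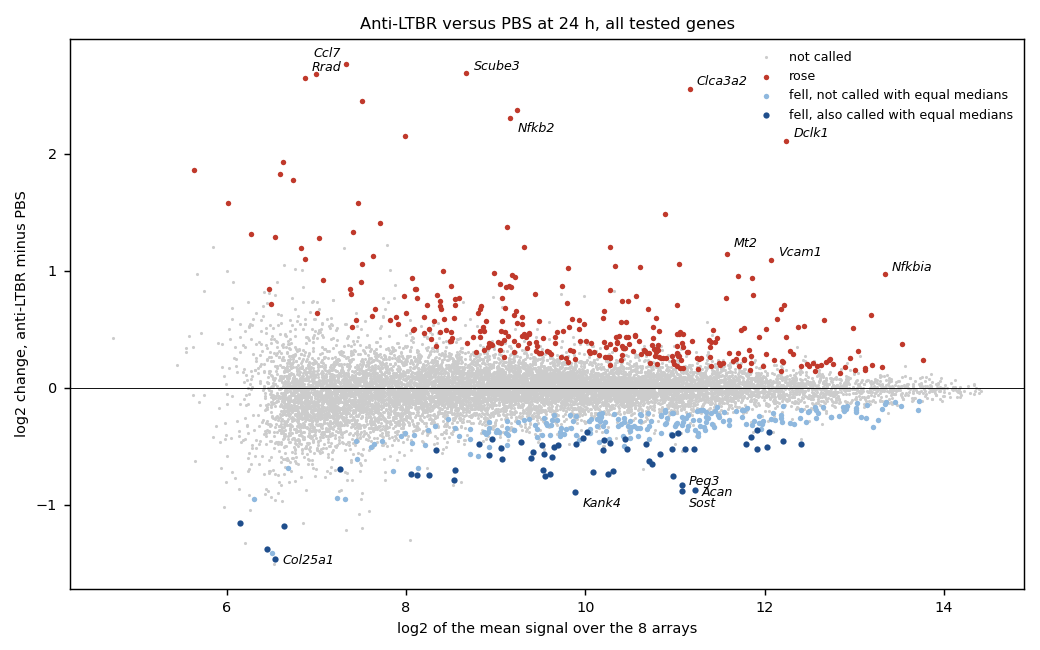
Each point is 1 of the 12454 tested genes, with the log2 of its mean signal over the 8 arrays on the x axis and its log2 change, anti-LTBR minus PBS, on the y axis. Red marks the 318 genes called higher with anti-LTBR, dark blue the 60 called lower that were also called with equal medians, light blue the other called falls, and labels mark named genes. The rises reach further from 0 than the falls, with 35 and 5 genes past a 2-fold change.

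The genes that act next to the receptor were read first. Ltbr itself had signals of 1598, 1381, 1392 and 1383 with anti-LTBR, against 1506, 1430, 1339 and 1315 with PBS, in the order of numbers 0 to 3. The groups overlapped and the change was 0.04 ± 0.06 (log2 ± SE, adjusted p = 0.800). Of 8 tested genes of the receptor's ligands and proximal signalling, 5 rose and 0 fell. Nfkb2, which encodes p100 and p52, had signals of 915, 1201, 905 and 811 with anti-LTBR, against 248, 202, 196 and 114 with PBS. Every anti-LTBR array was above every PBS array, and the change was 2.31 ± 0.14 on the log2 scale (adjusted p = 1.46e-06). A second Nfkb2 probe set gave 1.05 ± 0.18. Relb, the partner of p52, rose by 0.84 ± 0.14. Among the components of the complex that degrades NIK, Traf2 rose by 0.74 ± 0.09, Birc2 by 1.03 ± 0.10 and Birc3 by 1.20 ± 0.14, with adjusted p between 6.88e-05 and 0.000428. Map3k14, which encodes NIK, had 336 ± 53.7 with anti-LTBR and 278 ± 64.5 with PBS (SD, n = 4) on its tested probe set, a change of 0.28 ± 0.11 with an adjusted p of 0.200. A second Map3k14 probe set with a lower signal gave 1.34 (unadjusted p = 0.00114), so the probe sets of that gene disagree. Traf5, a TRAF adaptor, had a change of -0.06 ± 0.11 (adjusted p = 0.845).

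Of 28 tested NF-kB subunits, regulators and feedback genes 15 rose and 0 fell, with a median of 0.32 beside -0.01 over all tested genes. The 15 include Nfkb2, Relb, Traf2, Birc2 and Birc3, already counted above, so the 2 counts are not separate. The inhibitors Nfkbia (0.97 ± 0.06) and Nfkbie (2.15 ± 0.16) were also among the 15. Of 11 tested inflammatory chemokines 7 rose, among them Ccl7, Ccl5, Cxcl10 and Ccl2, at 2.76, 2.68, 2.45 and 2.37 on the log2(signal + 10.2) scale. Some PBS signals were near background, down to 10.1 for Ccl5, so these sizes depend on the added constant. With a constant of 1 they were 3.15, 3.20, 2.73 and 2.46, and with 50 they were 1.94, 1.75, 1.80 and 2.09. The other 3 rises were Cx3cl1 (1.20), Ccl9 (1.04) and Cxcl16 (0.86), the last named after its value was seen.

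Beyond these groups, 4 genes had changes above 2 on the log2(signal + 10.2) scale. Scube3, which encodes a secreted glycoprotein with EGF-like repeats and a CUB domain, had signals of 569, 288, 1281 and 724 with anti-LTBR, against 111, 41.7, 192 and 64.6 with PBS. All anti-LTBR arrays were above all PBS arrays, and the change was 2.69 ± 0.17 (adjusted p = 1.46e-06), a 6.44-fold rise. Rrad, an RGK family small GTPase that inhibits voltage-gated calcium channels, had signals of 82.3, 257, 328 and 163 with anti-LTBR, against 4.90, 41.1, 50.8 and 9.70 with PBS. The groups did not overlap and the gene rose (adjusted p = 4.57e-05). Its PBS signals were at or near background, so the size of the change is set by the added constant, with 2.65 for 10.2, 3.26 for 1 and 1.69 for 50. Clca3a2, of the family of calcium-activated chloride channel regulators, had signals of 3947, 7568, 2055 and 1678 with anti-LTBR, against 771, 1872, 244 and 225 with PBS. Its levels differed so much between numbers that the groups overlapped, yet each pair moved up, by 2.55 ± 0.13 on average (adjusted p = 5.62e-07). A second probe set of Clca3a2 gave 2.81. The related Clca3a1, named after its value was seen, rose by 0.87 ± 0.14, and whether probes for one bind transcripts of the other was not tested. Dclk1, a microtubule-binding kinase of the doublecortin family, had signals of 8786, 10317, 6724 and 4541 with anti-LTBR, against 3068, 3440.1, 1195 and 617 with PBS. Again no arrays overlapped, the change was 2.11 ± 0.19 (adjusted p = 4.42e-05), and the 8 other probe sets of Dclk1 gave 1.49 to 2.79.

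The next rises were of adhesion, membrane and stress genes. Icam1 and Vcam1, the endothelial and stromal ligands of leukocyte integrins, rose by 1.48 ± 0.26 and 1.09 ± 0.15 (adjusted p = 0.00509 and 7.33e-04), and they were the called members of a list of 9 tested lymphoid organizer genes. Icam1 had signals of 5411, 1597, 1912 and 1028 with anti-LTBR, against 3916, 662, 375 and 269 with PBS, and number 0, the pair with high endothelial marker signal, was the highest in both groups. Without number 0 its change was 1.82 (adjusted p = 1.60e-04). The part of endothelial cells in this difference was not tested. Icam1 missed the threshold without the number 1 pair (adjusted p = 0.0557). Plvap, a protein of the diaphragms of fenestrated endothelium, had signals of 468, 207, 169 and 144 with anti-LTBR, against 283, 74.3, 12.8 and 53.2 with PBS. It rose by 1.58 ± 0.29 (adjusted p = 0.00618), including on numbers 1 to 3, where Pecam1 was low, and of the 12 fits that left out arrays it missed the threshold in the one without pair 1 (adjusted p = 0.0617). Its PBS signals reached down to 12.8, near background, so the size depends on the added constant, with 1.81 for 1 and 1.10 for 50. Without number 0 the Plvap change was 1.87 (adjusted p = 0.0112). Of the 16 tested endothelial markers it was the one that rose, with a median of 0.02 over the list.

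Casp4, the mouse inflammatory caspase that senses intracellular lipopolysaccharide, had signals of 863, 696, 871 and 792 with anti-LTBR, against 437, 284, 245 and 279.5 with PBS. The groups did not overlap and the change was 1.37 ± 0.13 (adjusted p = 4.57e-05). Casp8 (0.34 ± 0.07) and Bid (0.38 ± 0.09), both of the extrinsic death pathway, made smaller rises, and the 3 were the called members of 24 cell death genes. Casp8 and Bid were lost in 5 and 7 of the 12 fits that left out arrays. Sncg, gamma-synuclein, had signals of 60.5, 709, 245 and 197 with anti-LTBR, against 23, 319, 80.3 and 44 with PBS, a rise of 1.41 ± 0.20 in all 4 pairs over levels that differed widely between numbers. Flrt3, a leucine-rich repeat adhesion protein, rose by 1.05 ± 0.14, Tmem176a, a membrane protein, by 1.06 ± 0.15, and Rhbdl2, a rhomboid protease of the cell surface, by 1.00 ± 0.14. Rhbdf2, the inactive rhomboid that escorts the TNF-releasing protease Adam17, rose by 1.33 ± 0.30 (adjusted p = 0.0195). Its call was lost in 7 of the 12 fits that left out 1 array or 1 pair: without the anti-LTBR or the PBS array of number 1 or 3, and without pair 1, 2 or 3 (adjusted p 0.0562 to 0.161).

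**Figure D2:**
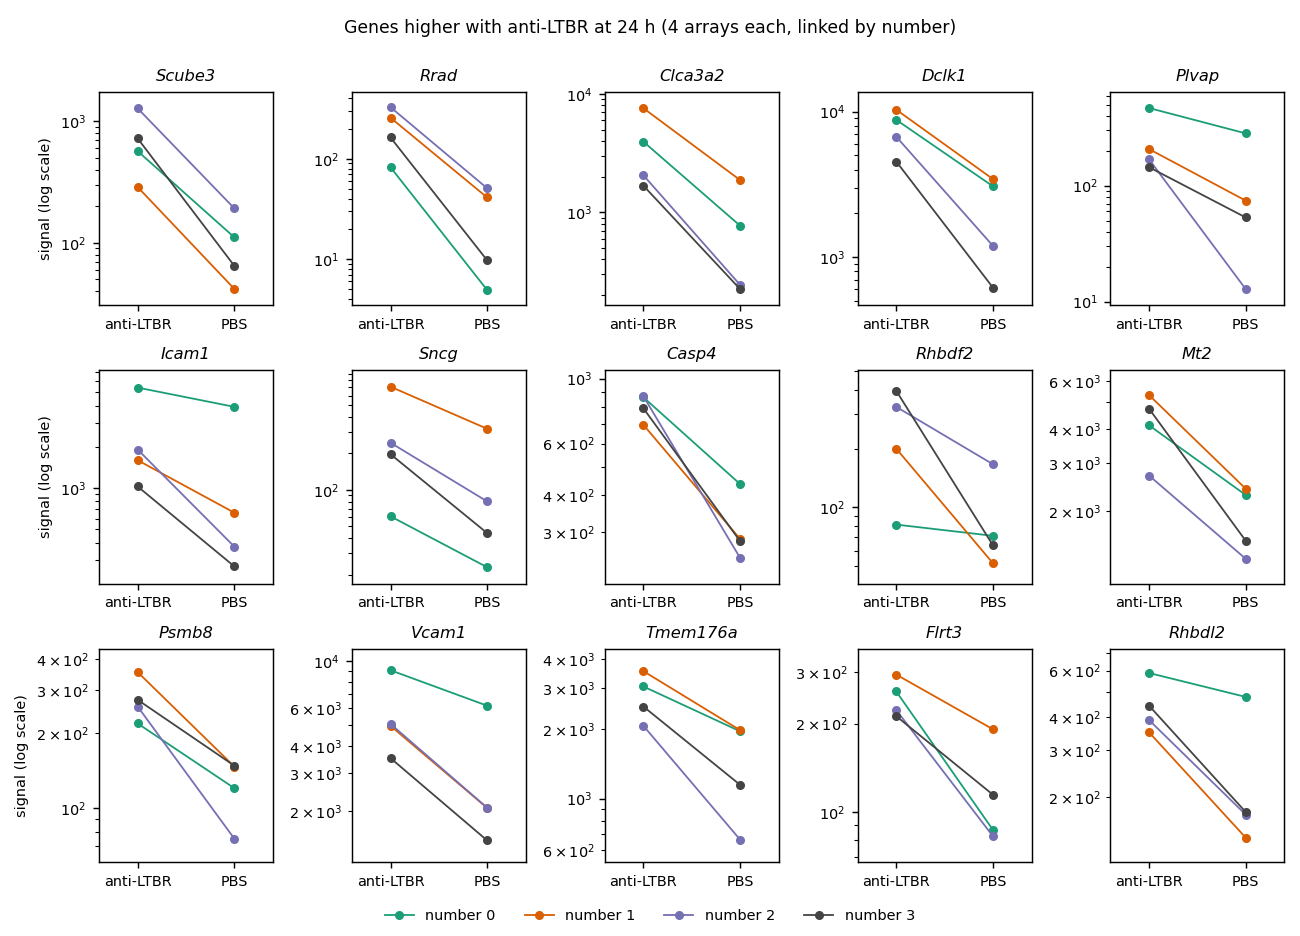
Array signals (log axis) of the largest rises outside the chemokine and NF-kB lists, with anti-LTBR left of PBS in each panel and lines joining arrays of the same number. Every line slopes up toward anti-LTBR, as the naming rule requires. Some genes, among them Sncg, Icam1 and Plvap, differ more between numbers than between treatments.

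The metal-binding metallothioneins rose together. Mt2 had signals of 4122, 5317, 2701 and 4738 with anti-LTBR, against 2293, 2417, 1341 and 1560.2 with PBS, without overlap, and a change of 1.14 ± 0.18 (adjusted p = 0.00281). Mt1 rose by 0.77 ± 0.13. They were 2 of the 3 genes that rose among 23 antioxidant and detoxifying genes, of which 1 fell. Both chains of the interferon gamma receptor rose, Ifngr1 by 0.78 ± 0.07 and Ifngr2 by 0.74 ± 0.10, and both were named after their values were seen. Ifngr1 had signals of 2103, 1872, 2129 and 1589.8 with anti-LTBR, against 1363, 1067, 1156 and 890 with PBS, with no overlap. A second Ifngr2 probe set gave 0.09. Edar, a TNF receptor family member known from hair follicle development, and Zfp36l1, which binds AU-rich elements and promotes mRNA decay, were also named after their values were seen and rose by 0.80 ± 0.15 and 0.79 ± 0.10. Other rises chosen in this way were Nebl (0.84 ± 0.15), of thin filaments, and the neuron-associated tubulin Tubb3 (0.76 ± 0.11) and membrane proteolipid Gpm6b (0.80 ± 0.10).

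Genes of MHC class I antigen presentation, which process and load peptides, rose as 6 of 17 tested members with 0 falls (7 rose without number 0). The immunoproteasome subunits Psmb9, Psmb10 and Psmb8 rose by 1.78 ± 0.33, 0.98 ± 0.18 and 1.13 ± 0.23. Psmb9 had signals of 143, 236, 139 and 157 with anti-LTBR, against 83.7, 30.2, 26.1 and 39.3 with PBS, without overlap. The size of the Psmb9 change depends on the added constant, with 2.01 for 1 and 1.22 for 50. The heavy chain gene H2-K1 rose by 0.94 ± 0.12 and Tapbp, tapasin, by 0.49 ± 0.06. Probes of H2-K1 may also bind other class I heavy chain transcripts. Psmb8 missed the threshold without the anti-LTBR array of number 0 or 1, and without pair 1 or 3 (adjusted p 0.0519 to 0.121), while Psmb9 and Psmb10 missed it without pair 1 (adjusted p = 0.0933 and 0.0978). Of 32 tested interferon-stimulated genes 4 rose. These were Ifi47 (0.83 ± 0.13), Ddx58 (0.67 ± 0.15), which encodes the RNA sensor RIG-I, Parp14 (0.78 ± 0.18) and Igtp (0.67 ± 0.18), with 0 falls and a positive change in 29 of the 32. Of these only Ifi47 was called in each fit that left out an array or a pair, and Igtp was lost in 10 of the 12.

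Secreted growth factors moved in both directions, with 5 rises and 1 fall among 29 tested and a median of -0.06. Igf1, the insulin-like growth factor, rose by 0.46 ± 0.08, Csf1, the macrophage colony-stimulating factor, by 0.24 ± 0.05, Lif by 0.58 ± 0.13 and Nrg1, neuregulin, by 0.47 ± 0.12. Lif and Nrg1 were lost in 9 and 10 of the 12 fits that left out arrays. Among 16 complement and acute phase genes the iron-carrier-binding lipocalin Lcn2 (0.95 ± 0.17) and the complement inhibitor Cd55 (0.77 ± 0.19, lost in 8 of the 12) rose. Besides Icam1 and Vcam1, the hyaluronan receptor Cd44 (0.44 ± 0.06) and the mesenchymal cadherin Cdh11 (0.50 ± 0.08) rose among 29 adhesion molecules, while the integrin Itga8 (-0.21 ± 0.04) was 1 of 2 that fell. With equal medians 0 of the 29 fell and 5 rose.

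Promoter sequences of RefSeq, from 250 bases before to 50 after the start of each gene, were searched for the kappaB motif, the NF-kB binding consensus in its 10-letter form with ambiguous bases, on both strands. Windows were chosen by rule, as those of the largest named rises and falls that had a window, plus Nfkb2. Shown are windows on build GRCm38.p6 for Nfkb2 (chr19:46304487-46304786, plus strand) and Scube3 (chr17:28142059-28142358, plus strand) among the rises. Among the falls, the window of Sost (chr11:101966966-101967265, minus strand) is shown. Each is written in the direction of its gene, with kappaB matches in capitals.
Nfkb2: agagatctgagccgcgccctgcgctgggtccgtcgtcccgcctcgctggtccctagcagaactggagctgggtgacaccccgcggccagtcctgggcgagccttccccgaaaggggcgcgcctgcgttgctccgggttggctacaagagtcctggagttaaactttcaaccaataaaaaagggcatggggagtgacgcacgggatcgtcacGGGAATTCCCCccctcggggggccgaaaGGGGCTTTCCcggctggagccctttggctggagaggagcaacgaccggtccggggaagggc
Scube3: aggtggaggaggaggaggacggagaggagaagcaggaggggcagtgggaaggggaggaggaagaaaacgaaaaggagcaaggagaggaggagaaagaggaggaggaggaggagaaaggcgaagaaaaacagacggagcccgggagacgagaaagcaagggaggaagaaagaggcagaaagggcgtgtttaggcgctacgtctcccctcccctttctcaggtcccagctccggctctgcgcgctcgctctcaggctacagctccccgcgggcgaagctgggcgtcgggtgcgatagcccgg
Sost: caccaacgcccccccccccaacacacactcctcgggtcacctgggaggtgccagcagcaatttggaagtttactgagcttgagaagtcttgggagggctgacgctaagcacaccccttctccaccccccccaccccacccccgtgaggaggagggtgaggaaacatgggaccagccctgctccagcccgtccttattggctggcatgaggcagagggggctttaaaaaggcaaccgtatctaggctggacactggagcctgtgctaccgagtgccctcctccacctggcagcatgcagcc
The Nfkb2 window held 3 matches, of which the first 2 overlap and appear as one run. The Scube3 and Sost windows held 0, as did that of Kank4, the largest fall by the naming rule, which is not printed. Counted by gene, a match in any window was present for 16.9 percent of the genes that rose (44 of 260 with a window). It was present for 7.59 percent of those that fell (17 of 224) and for 6.4 percent of all tested genes with a window. Counted by window, which is a different measure, 4.51 percent of all 32851 windows held a match. Among the rises, 11 of the 17 chemokine and NF-kB genes with a window held one (64.7 percent), as did 33 of the 243 others (13.6 percent). A match is a description of the letters in these windows.

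The falls were smaller. Acan encodes aggrecan, the large chondroitin sulfate proteoglycan of cartilage. Its signals were 1093, 3088, 1043 and 1607 with anti-LTBR, against 2319, 5353, 2156 and 2456 with PBS. Number 1 was high in both groups, so that they overlapped, and each pair fell, with a mean change of -0.88 ± 0.12 (adjusted p = 9.17e-04). Csgalnact1, which starts chondroitin sulfate chains, had signals of 330.3, 870, 404 and 626 with anti-LTBR, against 609, 1449, 675 and 1032 with PBS, a change of -0.76 ± 0.09 (adjusted p = 2.81e-04). Fgfr3, the growth plate receptor for fibroblast growth factors, fell by 0.74 ± 0.09, with -0.23 ± 0.26 on a second, dimmer probe set. Col11a1, a fibrillar collagen of cartilage, fell by 0.48 ± 0.06 (adjusted p = 2.81e-04) and was 1 of 3 falls among 45 structural matrix genes, in which 0 rose. With equal medians Col11a1 was the one that fell and Ltbp2 rose. Col9a1 (-0.53 ± 0.11) and Gdf10 (-0.51 ± 0.11), a BMP family ligand, were named after their values were seen and fell. Col9a1 was lost in 3 and Gdf10 in 4 of the 12 fits that left out arrays, and a second Col9a1 probe set gave -0.24. Col2a1, the main cartilage collagen, named in the same way, had signals of 10592, 18982, 12123 and 16213 with anti-LTBR, against 11917, 20020, 13807 and 15641 with PBS, and its change of -0.10 ± 0.05 was not called (adjusted p = 0.352). The cartilage transcription factor Sox9 was lower in each of the 4 pairs but did not pass on its tested probe set (-0.40 ± 0.13, adjusted p = 0.0936), while a second probe set gave -0.44 ± 0.10 (unadjusted p = 4.96e-04). The calls of Acan, Csgalnact1, Fgfr3 and Col11a1 held with equal medians (adjusted p = 0.00105, 3.12e-04, 3.89e-04 and 0.00143).

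Kank4, a protein of the KANK family at focal adhesions, had the largest fall by the naming rule, with signals of 773, 391, 801 and 678 with anti-LTBR, against 1276, 782, 1659 and 1220.3 with PBS. Each pair fell, with a mean change of -0.89 ± 0.13 (adjusted p = 0.00157), although the groups overlapped slightly. Sost, sclerostin, a secreted inhibitor of Wnt signalling known from osteocytes, had signals of 246, 226, 2481 and 3715 with anti-LTBR, against 425, 643, 4434 and 5155 with PBS. Numbers 2 and 3 had far higher signals than 0 and 1, and the change of -0.89 ± 0.19 (adjusted p = 0.0177) was lost in 7 of the 12 fits that left out arrays: without the anti-LTBR array of number 0 or 1, the PBS array of number 1 or 2, or pair 0, 1 or 3 (adjusted p 0.05003 to 0.0854). A second Sost probe set gave -0.88. Peg3, an imprinted zinc finger gene expressed from the paternal allele, had signals of 674, 3655, 758 and 1235 with anti-LTBR, against 1189, 5986, 1417 and 2352 with PBS, a change of -0.83 ± 0.09 (adjusted p = 1.02e-04), with -1.55 and -0.50 on its other probe sets. Susd5, a sushi domain protein, fell by 0.76 ± 0.08.

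The other named falls had varied roles. Lpl, lipoprotein lipase, had signals of 352, 663, 564 and 653 with anti-LTBR, against 592, 1112, 824 and 1149 with PBS, and fell by 0.70 ± 0.09 (adjusted p = 3.54e-04). G0s2, an inhibitor of adipose triglyceride lipase, fell by 0.71 ± 0.11. Of 25 tested fatty acid and triglyceride genes, Lpl and the fatty acid binding protein Fabp5 (-0.30 ± 0.06) were the 2 that fell, and 0 rose. With equal medians Lpl fell and Plin2 rose, and Fabp5 was lost there (adjusted p = 0.135) and in 5 of the 12 fits that left out arrays. Fgl2, a membrane prothrombinase, fell by 0.72 ± 0.12, and F3, tissue factor, named after its value was seen, fell by 0.63 ± 0.10. Map3k5, the stress kinase ASK1, fell by 0.74 ± 0.12, Rgcc, a cell cycle regulator induced by complement, fell by 0.75 ± 0.14, and Inmt, an indolethylamine methyltransferase, fell by 0.74 ± 0.12. Rgcc missed the threshold without pair 1 and Inmt without pair 3 (adjusted p = 0.0911 and 0.0545). Gfra3, the artemin co-receptor, fell by 0.75 ± 0.18 and did not overlap between groups, but its call was lost in 9 of 12 fits, each except those without the anti-LTBR array of number 1, the PBS array of number 3 or pair 1. Sync, syncoilin of intermediate filaments, fell by 0.79 ± 0.20, was lost in 10 of 12, each except those without the PBS array of number 2 or pair 2, and its 2 other probe sets gave -0.18 and -0.27. Also named after their values were seen, the LIM protein Fhl2 fell by 0.52 ± 0.07, the phagocytic receptor Mertk fell by 0.57 ± 0.08 and the IGF binding protein protease Pappa fell by 0.48 ± 0.08. The other Pappa probe sets gave -0.08 and -0.51. The 5 genes that fell at least 2-fold, Col25a1, Fermt3, C1qc, Ifna2 and 9630013K17Rik, had low signals. Of the 12 fits that left out arrays, C1qc was lost in 12, 9630013K17Rik in 10, and Fermt3 and Ifna2 in 9 each, and C1qc was lost with equal medians (adjusted p = 0.0579). Col25a1 averaged 45.7 ± 26.7 with anti-LTBR and 141 ± 62.3 with PBS (SD, n = 4), and a second Fermt3 probe set gave 0.36.

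**Figure D3:**
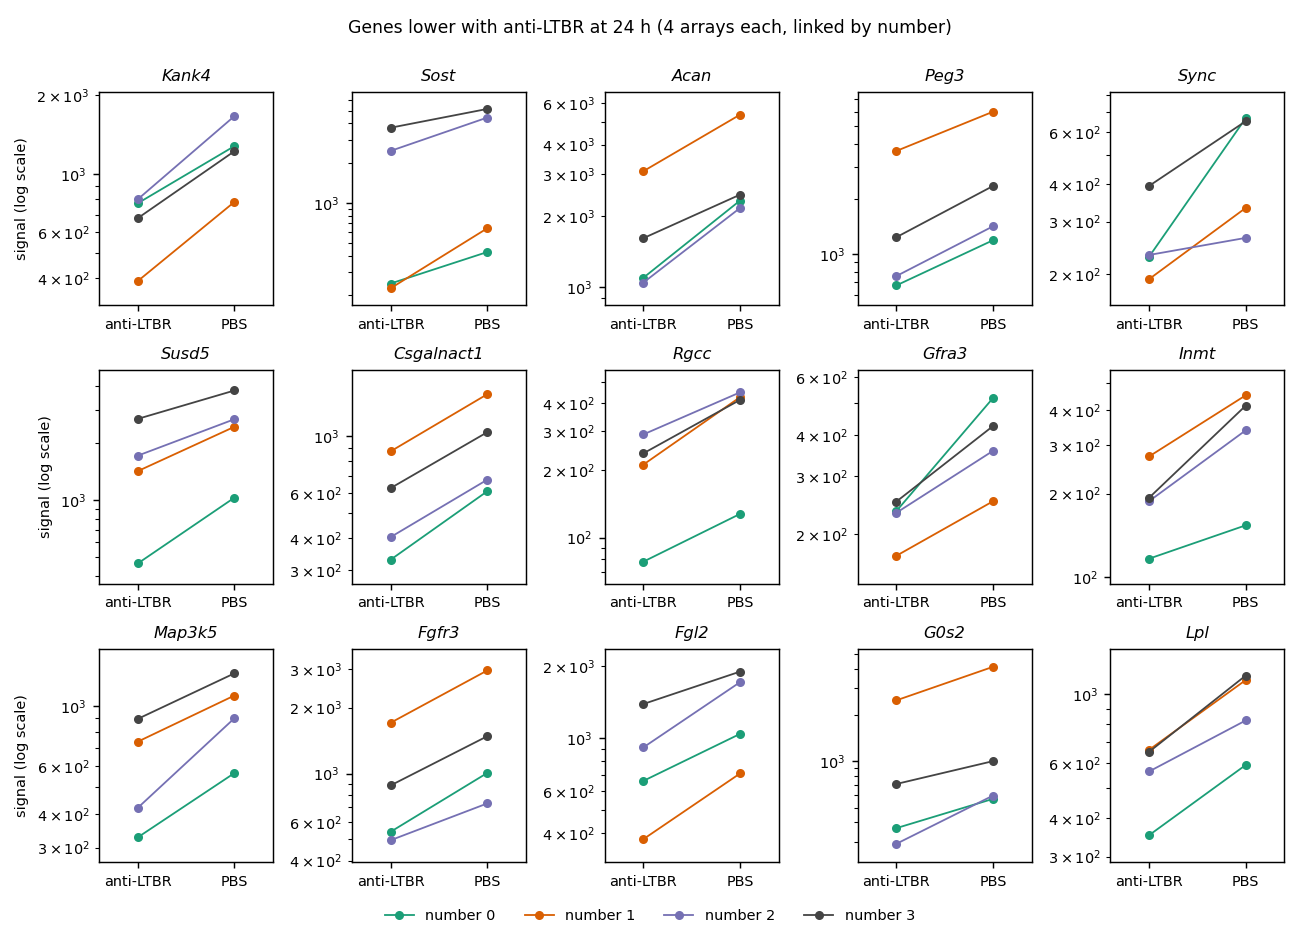
Array signals (log axis) of the largest falls by the naming rule, with anti-LTBR left of PBS in each panel and lines joining arrays of the same number. Every line slopes down toward anti-LTBR, as the naming rule requires. In most panels the ranges of the groups overlap, as for Sost, whose numbers 2 and 3 lie far above 0 and 1.

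Among smooth muscle contractile genes, 9 of 33 tested members fell and 0 rose, with a median of -0.16 beside -0.01 over all genes and a positive change in 4. Acta1, skeletal alpha actin, had the lowest adjusted p, with signals of 444, 313, 235 and 145 with anti-LTBR, against 712, 518, 344 and 282 with PBS and a change of -0.70 ± 0.13 (adjusted p = 0.00835). It missed the threshold without pair 1 (adjusted p = 0.0831). Nexn (-0.33 ± 0.06), an actin-binding protein of the Z disc, Vcl (-0.19 ± 0.04), vinculin, and Mrvi1 (-0.31 ± 0.07), the cGMP kinase substrate also called IRAG, followed. Vcl was lost in 6 and Mrvi1 in 7 of the 12 fits that left out arrays. This count changed with the scaling and with the arrays in the fit. With equal medians Acta1 was the one that fell, while Synm and Synpo2 rose. Without the number 0 pair 2 genes fell, with a list median of -0.17. Over all tested genes the falls went from 277 to 113 without that pair. The summed signal of the list was 142440 with anti-LTBR and 153120 with PBS on number 0, and 145520 to 164100 with anti-LTBR and 160230 to 188760 with PBS on the other numbers. The adventitial fibroblast markers, whose sum was higher with anti-LTBR in all 4 pairs as given above, had a positive change in 4 of 5 tested members. Their median of 0.23 was the change of Cd34, the only member that was called to rise, and 0 fell. The part of these markers in the contractile count was not tested.

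Of 29 tested TGF-beta, BMP and Id genes 6 fell and 2 rose. Id2, which blocks DNA binding by bHLH transcription factors and is a BMP target, had signals of 3348, 3366, 3644 and 2296 with anti-LTBR, against 4192, 4609, 4234 and 3744 with PBS. The groups did not overlap and the change was -0.42 ± 0.07 (adjusted p = 0.00258). Id4 fell by 0.47 ± 0.09, and these 2 were the falls that were called with equal medians. Tgfbr1 (-0.20 ± 0.04) was not called there, and Tgif1 (0.43 ± 0.09), a corepressor of Smad transcription factors, rose under both, and each was lost in 6 of the 12 fits that left out arrays. The Wnt receptors Fzd1 (-0.37 ± 0.07) and Fzd7 (-0.25 ± 0.05) were the 2 falls among 26 Wnt and Notch genes, beside 2.22 percent lower over all tested genes. Neither was called with equal medians. Among 20 vasoactive genes the prostacyclin synthase Ptgis (-0.28 ± 0.03), the inducible cyclooxygenase Ptgs2 (-0.48 ± 0.10) and the cGMP-dependent kinase Prkg1 (-0.29 ± 0.06) fell and 0 rose. Only Ptgs2 of the 3 was called with equal medians, and it missed the threshold without the anti-LTBR array of number 3 or without pair 1 (adjusted p = 0.0522 and 0.0896). Among 12 osteogenic genes Acan and the homeobox factor Dlx5 (-0.43 ± 0.08) fell under both scalings. Dlx5 was lost in 4 of the 12 fits that left out arrays, among them the one without pair 0 (adjusted p = 0.0743).

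The AP-1 and early response genes split. Junb had signals of 859, 598, 683 and 776 with anti-LTBR, against 599, 295, 335 and 391 with PBS and rose by 0.87 ± 0.10 (adjusted p = 3.23e-04), and Myc rose by 0.66 ± 0.08. Fos, a partner of the Jun proteins in AP-1, had signals of 1211, 441, 405 and 756 with anti-LTBR, against 1480, 746, 629.5 and 948 with PBS and fell by 0.49 ± 0.09 (adjusted p = 0.00835), and Rgs2, an inhibitor of Gq signalling, fell by 0.59 ± 0.09. In all 3 rose and 2 fell of 25 tested, also with equal medians, and Fos missed the threshold without pair 1 or 2 (adjusted p = 0.0635 and 0.0577). The circadian repressor Bhlhe40 (0.52 ± 0.09) was the one call among 17 clock genes, beside 4.78 percent called over all tested genes.

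Calls in metabolic, stress and other lists stand beside 4.78 percent called over all tested genes (2.55 percent higher and 2.22 percent lower). Of 25 unfolded protein and ATF4 genes 3 fell, Atf4 itself (-0.21 ± 0.04), Chac1 (-0.42 ± 0.08) and Mthfd2 (-0.42 ± 0.09), and Nupr1 rose. Of these 4 only Nupr1 was called with equal medians, and it was lost in 9 of the 12 fits that left out arrays. Of 24 glycolysis and hypoxia genes 4 rose and 0 fell, but 0 were called without the number 0 pair. DNA replication genes showed 2 rises among 27 tested, the helicase subunit Mcm7 (0.46 ± 0.07) and the sliding clamp Pcna (0.22 ± 0.05), with a positive change in 23. The 3 other Mcm7 probe sets gave 0.10, 0.46 and 0.50. Pcna was lost in 7 of the 12 fits that left out arrays. The efflux transporter Abca1 (0.32 ± 0.06) was the one call among 19 cholesterol genes. Besides Rrad, which rose, 2 of 29 small GTPase and actin regulator genes fell, Cdc42ep3 (-0.24 ± 0.05) and Enah (-0.37 ± 0.08), neither with equal medians. Limma called 0 of 29 mitosis genes (2 at an unadjusted p under 0.05), 0 of 23 matrix protease and inhibitor genes (7) and 0 of 27 respiratory chain genes (3). It also called 0 of 9 macrophage and 0 of 2 lymphocyte markers, with 0 at an unadjusted p under 0.05.

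**Figure D4:**
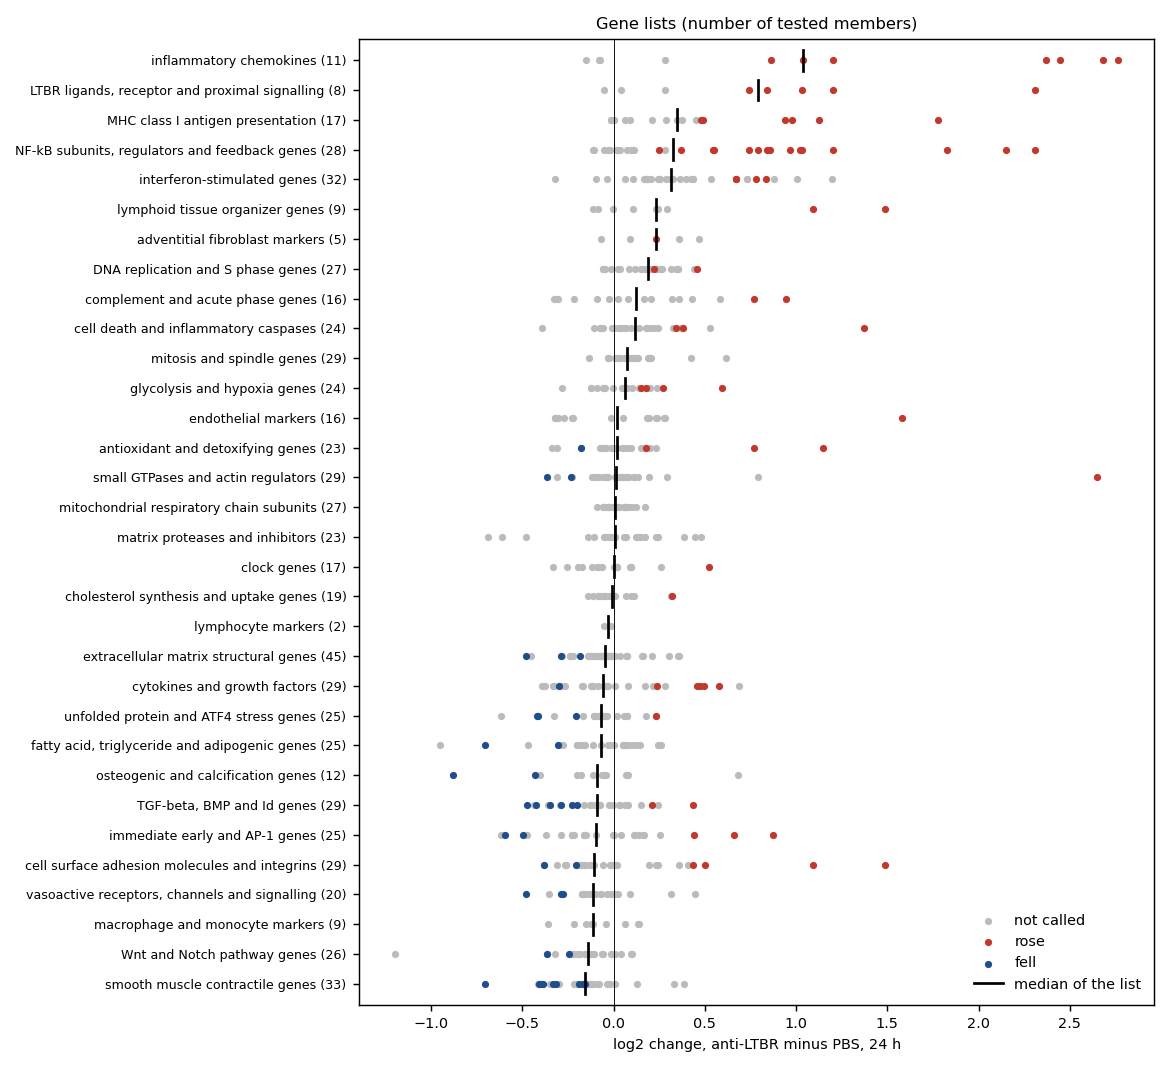
Log2 changes, anti-LTBR minus PBS, of the tested members of each gene list, 1 point per gene, with called rises and falls coloured and the list medians marked. Numbers in brackets count the tested members. The chemokine list has the highest median, 1.04, and the contractile list the lowest, -0.16, beside -0.01 for all genes.

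Because TNF activates the canonical NF-kB route, the anti-LTBR arrays were also tested directly against the 4 TNF arrays of the same fit. This comparison shares the anti-LTBR arrays with the one against PBS. Of all tested genes 47 were higher (0.377 percent) and 43 lower (0.345 percent) with anti-LTBR than with TNF. Of the 318 rises 27 were also above the TNF level and 11 were below it. Scube3 averaged 715 ± 418 with anti-LTBR, 309 ± 161 with TNF and 102 ± 66.5 with PBS (SD, n = 4 each), 1.17 ± 0.17 on the log2 scale above TNF (adjusted p = 0.00571). Nfkb2 averaged 958 ± 169 with anti-LTBR, 542 ± 111 with TNF and 189.7 ± 55.7 with PBS, and was 0.82 ± 0.14 above TNF (adjusted p = 0.0172). Relb, the partner of p52, lay the other way, at 357 ± 32.2 with anti-LTBR and 551 ± 124 with TNF. Its difference from TNF of -0.59 ± 0.14 was not called (adjusted p = 0.091). Flrt3, Ccl9 and Lurap1l, whose rises over PBS were 1.05, 1.04 and 0.96, were 0.75 ± 0.14, 0.66 ± 0.12 and 0.48 ± 0.08 above TNF.

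Other rises were below their TNF level. Ccl2, a chemokine for monocytes, averaged 1013 ± 608 with anti-LTBR, 2792 ± 1012 with TNF and 195 ± 142 with PBS, and was -1.63 ± 0.26 relative to TNF (adjusted p = 0.0100). Ccl5 (-2.48 ± 0.47) and Ccl7 (-1.61 ± 0.24) were also below their TNF levels, and among the class I genes so were H2-K1 (-0.89 ± 0.12), Tapbp (-0.75 ± 0.06) and Psmb8 (-1.17 ± 0.23). Lcn2 differed most of the class I, complement and acute phase members named, at -2.01 ± 0.17 relative to TNF (adjusted p = 8.60e-05). Rrad averaged 208 ± 107 with anti-LTBR, 118 ± 40.0 with TNF and 26.6 ± 22.7 with PBS, and Clca3a2 3812 ± 2694 with anti-LTBR, 3149 ± 2303 with TNF and 778 ± 772 with PBS, and neither difference from TNF was called (0.65 ± 0.25 and 0.30 ± 0.13, adjusted p = 0.327 and 0.427). Of the 277 falls 3 were also below the TNF level, the growth factor Ereg, the activin antagonist Fst and the ganglioside synthase St3gal5, and 0 were above it. At an unadjusted limma p under 0.05, 44 of the falls were below the TNF level and 17 above it. None of Ereg, Fst and St3gal5 was called lower than PBS with equal medians. Without the number as a block 0 genes were higher and 2 lower with anti-LTBR than with TNF. Leaving out 1 anti-LTBR array or 1 number moved these counts to between 7 and 40 higher and 9 and 40 lower, the fewest without number 1.

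**Figure D5:**
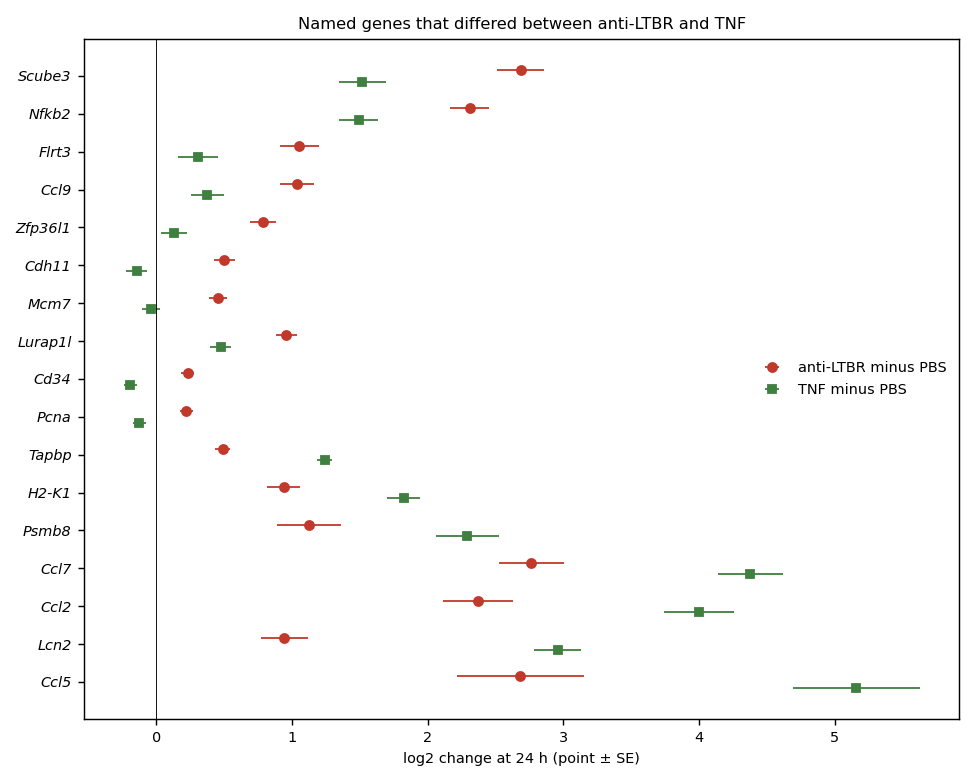
Log2 changes against PBS (x axis, point ± SE) with anti-LTBR (red circles) and with TNF (green squares) for named rises, 1 row per gene, that were called different between the 2 agonists. Both changes use the same 4 PBS arrays. In the rows of Scube3, Nfkb2 and Flrt3 the anti-LTBR circle lies to the right, and in those of Ccl2, Ccl5, Ccl7 and Lcn2 the TNF square does.

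Earlier times had 1 array per treatment, both of number 0, so their differences carry no test. Nfkb2 was 361 with anti-LTBR and 277 with PBS at 2 h, and 708 and 280.4 at 6 h, differences of 0.37 and 1.30 on the log2 scale. Scube3 differed by 0.31 at 2 h and 0.63 at 6 h. Rrad had signals of 12.3 with anti-LTBR and 2.60 with PBS at 2 h, both near background, and of 73.0 and 15.1 at 6 h. Clca3a2, at -0.01 and 0.09, and Dclk1, at 0.04 and 0.25, differed less at both times than at 24 h. Of the falls, Acan was -0.08 at 2 h and -0.32 at 6 h, Kank4 -0.12 and -0.20, and Peg3 0.19 and -0.08.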

How the data were processed

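RNA of cultured mouse aortic smooth muscle cells was measured on Affymetrix arrays, 1 per sample. The authors deposited linear intensity values made with GCOS 1.4, per the submitters' processing notes, with a trimmed mean of 500 on every array. How probes were summarized, background removed and detection set is not given in the sources used here. Of 45101 probe sets 64 controls were left out and 34958 carry 1 gene symbol, 932 several and 9147 none, and 34754 matched RefSeq by gene ID. Signals were used as log2(signal + 10.2), the 10th percentile at 24 h. A probe set was kept if 3 or more of the 15 arrays at 24 h had it above their own median, and the passing probe set with the highest mean stood for each gene. Some genes are not analysed here, and 1 promoter window that the naming rule selects is not reported here.

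Limma 3.58.1 in R 4.3.3 fitted the 15 arrays with a variance trend and the number as a block (8 residual degrees of freedom), and Benjamini-Hochberg adjustment ran over all tested genes. The block is in the design because the comparison pairs arrays by number. After removal of group means, the 4 same-number pairs of the 2 groups correlated at 0.58 to 0.78 and the 12 other pairs at -0.52 to 0.21. A call is an adjusted p under 0.05. The script was tested on simulated data. The number of arrays limits the precision.

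Genes named by rule were the 15 largest rises and falls outside the chemokine and NF-kB lists that were called under both scalings, moved alike in all 4 pairs and had a mean signal above 200. Added were 5 chemokine and NF-kB rises, up to 4 called members per list by adjusted p, the 5 largest changes beyond TNF and the receptor-proximal list. Genes named outside the rule are marked as such or complete a count. The comparison and the gene lists were chosen with earlier results of these data known. Alternatives were the scaling, the block, the pseudocount, the filter, the probe set summary, the arrays in the fit and leaving out arrays.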

Additional observations from a re-analysis of the deposited data

Results flagged for a closer look

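Among the 254 sets of 4 arrays formed by the 127 named genes in 2 groups, 7 held an array that lay far from the other 3 for its set's range, and chance alone flags about 1 in 20 such sets. Of the 7, 4 were arrays of number 0. Acan had a signal of 5353 on the PBS array of number 1, where the other 3 PBS arrays had 2156 to 2456. Rgcc had 127.7 on the PBS array of number 0, against 414.7 to 448.3 on the others. Birc3 had 281 on the same array, against 404.7 to 430.6, and Nrg1 had 1085 there, against 270.1 to 308.2. Mt1 had 2490 on the anti-LTBR array of number 2, where the other anti-LTBR arrays had 4118 to 4443. Ltbr had 1598 on the anti-LTBR array of number 0, against 1381 to 1392. C1qc had 210.6 on the anti-LTBR array of number 3, where the other anti-LTBR arrays had 3.9 to 9.2.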

How the results depend on the processing

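No named gene that was called changed direction in any alternative. Without the replicate block, 16 genes were called higher and 0 lower against PBS, and 0 higher and 2 lower against TNF, and the cause was not tested. A fit without the variance trend gave 19 higher and 14 lower against TNF and ended the call of 23 named genes against PBS. Scaling to equal medians left 61 genes lower and ended 21 named calls, while quantile normalization ended 0. Leaving out 1 array or 1 pair gave 124 to 284 genes higher and 57 to 216 lower against PBS. Leaving out 1 anti-LTBR array or 1 number gave 7 to 40 higher and 9 to 40 lower against TNF. In both the fewest were found without number 1. No TNF array was left out alone. In the other alternatives the counts moved by less than 1.5 times. The mean over all probe sets of a gene ended 10 named calls. Precision is limited by 4 arrays per group, and low signals such as those of Col25a1 and C1qc lie close to background.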

Other observations

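The following rises with anti-LTBR were also above their TNF level, and Brca1, Hells, Hat1, Sox4 and Maf were picked after their values were seen. The DNA repair gene Brca1 averaged 242 ± 76.9 with anti-LTBR, 129 ± 54.2 with TNF and 153 ± 42.4 with PBS (SD, n = 4 each), the chromatin remodelling helicase Hells 471 ± 171 with anti-LTBR, 278 ± 115 with TNF and 351 ± 90.3 with PBS, and the histone acetyltransferase Hat1 857 ± 164 with anti-LTBR, 633 ± 135 with TNF and 687 ± 92.8 with PBS. Relative to TNF they were 0.88 ± 0.14, 0.76 ± 0.10 and 0.44 ± 0.07 on the log2 scale (limma adjusted p = 0.00876, 0.00348 and 0.00651), like the replication genes Mcm7 (0.50 ± 0.07) and Pcna (0.35 ± 0.05). Without the number 0 pair the rises over PBS of Brca1, Hells, Hat1 and Pcna missed the threshold (adjusted p = 0.114, 0.216, 0.126 and 0.102). Mcm7 was called there on its tested probe set (adjusted p = 0.0113). Hells was also called lower with TNF than with PBS (-0.38 ± 0.10, adjusted p = 0.0409), so part of its difference from TNF is a fall with TNF.

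The transcription factor gene Sox4 averaged 11305 ± 851 with anti-LTBR, 9373 ± 871 with TNF and 7409 ± 1278 with PBS, and Maf 2597 ± 559.8 with anti-LTBR, 1782 ± 330.1 with TNF and 1567 ± 171 with PBS. They rose over PBS by 0.62 ± 0.05 and 0.71 ± 0.07 (adjusted p = 1.49e-05 and 4.76e-05) and were 0.27 ± 0.05 and 0.53 ± 0.07 above TNF (adjusted p = 0.0247 and 0.00286), and both rises were called without the number 0 pair. The stem and mesenchymal cell antigen Cd34 averaged 5073 ± 1448 with anti-LTBR, 3802 ± 1183 with TNF and 4283 ± 1005 with PBS, and was 0.42 ± 0.05 above TNF (adjusted p = 9.15e-04). Cd34 was also called lower with TNF than with PBS (-0.19 ± 0.05, adjusted p = 0.0286), so part of that difference is a fall with TNF. Its rise over PBS missed the threshold without the number 0 pair, the anti-LTBR array of number 0 or pair 3 (adjusted p = 0.0810, 0.0557 and 0.0721).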
